A study of Sus scrofa with 24 samples.

Results

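The 10 genes described here mark the endothelium of the blood-brain barrier and its transport: CLDN5, OCLN, TJP1, PECAM1, VWF, FLT1, KDR, SLC2A1, ABCB1 and MFSD2A. They were chosen by name, by matching the pig Entrez gene identifier of each row of the count files to these symbols, and all 10 were found among the 38882 genes listed. All 10 also passed the filter of at least 1 CPM (read count scaled to the size of its library) in at least 3 libraries, which kept 16326 genes for testing.

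Hippocampi of 24 piglets (PIC Camborough dam, PIC 359 sire) were collected at 14 days of age, and polyadenylated RNA was sequenced. Piglets were small (SGA) or appropriate (AGA) for gestational age by birth weight and received a control formula with triglyceride oils (CON) or a hydrolyzed fat formula (HF), in which free fatty acids, monoacylglycerol and soy lecithin took the place of part of the triglyceride. This gave 6 piglets in each of the AGA CON, SGA CON, AGA HF and SGA HF groups. The piglets formed 12 sex-matched littermate pairs of 1 SGA and 1 AGA piglet that shared a diet, 6 pairs on each diet and 6 in each of 2 cohorts.

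Brain capillaries are lined by endothelial cells that tight junctions seal to each other, so that most solutes cross only through carriers in the cell membrane, while efflux pumps return many lipophilic compounds to the blood. MFSD2A, a sodium-dependent carrier of lysophosphatidylcholine, brings docosahexaenoic acid (DHA) into the brain in that form and also keeps vesicle traffic across the endothelium low. The comparison of size and diet asks whether the RNA of these barrier genes differed in the hippocampus of SGA piglets or of piglets fed HF formula.

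None of the 10 genes passed the threshold of the study's heat map, a Benjamini-Hochberg adjusted p (FDR) under 0.4, for size, diet or their interaction. In edgeR's quasi-likelihood test 0 of 10 were called for size, beside 0.478% of all genes tested. For diet 0 of 10 were called beside 0.159%, and for the interaction 0 of 10 beside 0.049%. At an unadjusted edgeR p under 0.05, 1 of 10 passed for size (ABCB1) beside 10.6% of all genes, 1 of 10 for diet (FLT1) beside 7.09%, and 1 of 10 for the interaction (ABCB1) beside 4.01%. Limma voom and the DESeq2 Wald test also called 0 of 10 in each of these 3 contrasts. Of the 16326 genes tested, limma voom called 53 for size, 10 for diet and 1 for the interaction. The DESeq2 Wald test called 210, 88 and 17. In bulk tissue, fewer endothelial cells and less RNA per endothelial cell cannot be told apart.

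Total counts on genes ranged from 6017336 to 9284355 (median 7346072), and 3 counts corresponded to 0.32 to 0.494 CPM. Of 19 endothelial identity markers, 17 were matched and all 17 were tested. Their summed level ranged from 424.8 to 665.5 CPM over the 24 libraries. The neuronal gene SLC17A7 averaged 3380.5 CPM and PROX1, a marker of dentate granule neurons, 48.2 CPM. A pair of libraries stood apart. AGA CON replicate 2 had the highest value of the 24 libraries for 7 of the 10 genes (CLDN5, SLC2A1, PECAM1, FLT1, OCLN, MFSD2A and ABCB1), and AGA HF replicate 4 was among the highest 3 for 4 of the 10, as were SGA CON replicates 2 and 3. AGA CON replicate 2 and AGA HF replicate 4 had the lowest summed neuron markers, at 3248.8 and 4133.4 CPM against 5474.8 to 8211.7 CPM in the other 22. They also had the highest summed astrocyte markers, at 12695.6 and 12277.1 CPM against 7697.0 to 10771.1 CPM in the others. The part of tissue make-up in the values of these genes was not tested. With AGA CON replicate 2 left out, 0 of the 10 genes were called for size, diet or the interaction, beside 2.46%, 2.65% and 0.564% of all genes. With both libraries left out, again 0 of 10 were called in each contrast, beside 36, 13 and 3 of the 16326 genes tested.

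Per exon length, the junction protein CLDN5 and the glucose carrier SLC2A1 were the most abundant of the 10. Levels between genes are compared here as RPKM (CPM per kilobase of exon in the annotation of the count files). CLDN5 had a median of 93.3 RPKM over the 24 libraries, above 93.8% of all genes tested by mean level. SLC2A1 followed at 63.7 RPKM and MFSD2A at 32.9 RPKM. CLDN5 exceeded SLC2A1 in 23 of 24 libraries with overlapping ranges, whereas SLC2A1 exceeded MFSD2A and MFSD2A exceeded FLT1 in 24 of 24 without overlap.

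The lower part of the order was closer. FLT1 (7.33 RPKM), PECAM1 (7.12 RPKM) and KDR (5.53 RPKM) overlapped, and FLT1 exceeded PECAM1 in only 16 of 24 libraries. ABCB1 (3.73 RPKM) and OCLN (3.24 RPKM) overlapped likewise, with ABCB1 higher in 18 of 24. VWF (1.29 RPKM) and TJP1 (0.894 RPKM) were the lowest and lay under OCLN in every library. The place of SLC2A1, VWF and TJP1 in this order is uncertain. The SLC2A1 gene model in the files has 4 exons of 551 bases within 1503 bases, where the later Sscrofa11.1 annotation gives the gene 25773 bases. TJP1 spans 108815 bases in the files and 265471 bases in Sscrofa11.1. VWF has 3 of its 30 exons on another sequence than the rest.

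**Figure D1:**
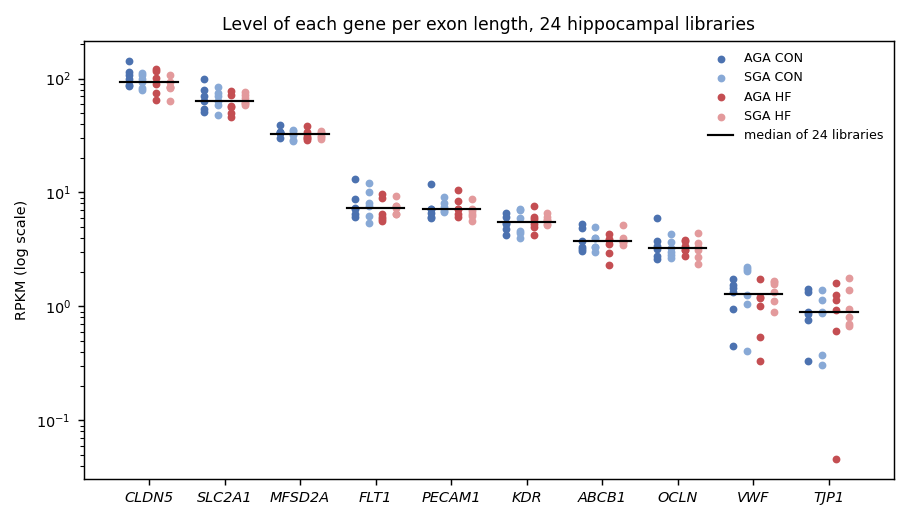
RPKM of each gene in the 24 hippocampal libraries, on a log axis, ordered by the median (black line) and coloured by group. CLDN5, SLC2A1 and MFSD2A (medians of 93.3, 63.7 and 32.9) lie above the other 7 genes, and TJP1 has a single library far under the rest.

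CLDN5, the main claudin of brain endothelial tight junctions (gene 396997, chromosome 14 from 54778542 to 54779434 on the minus strand of Sscrofa10.2, 1 exon), had a lower fitted level in SGA piglets, a difference that did not pass the threshold. Its lowest, median and highest values were 77.4, 91.8 and 128.1 CPM in AGA CON and 70.8, 86.1 and 100 CPM in SGA CON. On HF formula they were 57.7, 85.2 and 107.4 CPM in AGA and 57.3, 75.6 and 95.8 CPM in SGA piglets. All 4 groups overlapped. The SGA piglet was higher in 3 of 12 littermate pairs, with a mean difference of -0.13 on the log2 scale (SD over litters 0.274, exact sign-flip p = 0.132, two-sided). The edgeR estimate for size was -0.16 (SE 0.09, 95% interval -0.34 to 0.03, adjusted p = 0.784). The pair difference passed an unadjusted 0.05 when litter 8 (p = 0.0449) or litter 9 (p = 0.0332) was left out of the exact test, a level that 12.6% of all genes passed with all litters. By cohort, the SGA piglet was lower in all 6 pairs of cohort 1, by a mean of -0.24 (exact sign-flip p = 0.0312, the smallest that 6 pairs allow), and higher in 3 of 6 pairs of cohort 2, with a mean of -0.02 (exact p = 0.938). The share of all genes under 0.05 within cohort 1 is not given here. The difference between cohorts was not tested. For diet the values were -0.06 (SE 0.088, adjusted p = 0.944) in edgeR and -0.17 between litter means (exact permutation p = 0.214).

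OCLN and TJP1 showed no difference larger than the spread between piglets. Occludin, a transmembrane protein of the tight junction (OCLN, gene 397236, chromosome 16, 51547473 to 51598116), ranged from 7.46 to 19.0 CPM. On CON formula its mean was 11.5 ± 3.91 CPM for AGA and 10.4 ± 1.92 CPM for SGA piglets (SD, n = 6), and on HF formula 10.5 ± 1.26 and 10.3 ± 2.27 CPM. The edgeR estimate was 0.02 for size (SE 0.108) and -0.16 for diet (SE 0.108, adjusted p = 0.839). TJP1, the scaffold protein ZO-1 that ties the junction to the actin cytoskeleton (gene 100736682, chromosome 1, 161175436 to 161284250), was the least precise of the 10, with 1 to 45 counts per library. The single count was in AGA HF replicate 2, at 0.16 CPM, which is under the limit of 3 counts. For TJP1 the 95% interval of the edgeR size effect ran from 0.767-fold to 1.32-fold.

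The endothelial adhesion molecule PECAM1 and the clotting factor carrier VWF, both used as general endothelial markers, did not separate the groups. PECAM1 (gene 396941, chromosome 12, 14661621 to 14717153) averaged 26.0 ± 7.6 CPM for AGA and 26.3 ± 3.24 CPM for SGA piglets on CON formula, and 26.5 ± 5.59 and 23.7 ± 3.62 CPM on HF formula (SD, n = 6). Its edgeR size effect was 0.02 (95% interval -0.16 to 0.20) and 6 of 12 pairs had the higher value in the SGA piglet. VWF (gene 399543, chromosome 5, 66999793 to 67078133 for the exons on that chromosome) rested on 10 to 95 counts per library and had means of 6.05 CPM for AGA and 7.35 CPM for SGA piglets on CON formula, and 4.85 and 6.66 CPM on HF formula. It was higher in the SGA piglet of 8 of 12 pairs, by a mean of 0.39 on the log2 scale with an SD over litters of 0.978 (exact sign-flip p = 0.217). AGA HF replicate 2, which held the single TJP1 count, also had the lowest VWF value (1.6 CPM, 10 counts).

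FLT1 and KDR encode the VEGF receptors VEGFR1 and VEGFR2: KDR carries most of the growth signal, and FLT1 binds VEGF tightly with weak signalling. FLT1 (gene 396763, chromosome 11, 5307309 to 5483546) had 41.0, 48.6 and 87.0 CPM as lowest, median and highest value in AGA CON and 36.2, 52.9 and 82.1 CPM in SGA CON. It had 37.5, 42.2 and 64.5 CPM in AGA HF and 43.1, 49.7 and 61.9 CPM in SGA HF. The highest HF values were under the highest CON values in both size classes, but both of these CON values came from litter 4. The next highest CON values were 59.0 CPM in AGA and 67.3 CPM in SGA piglets. The lowest HF value was under the lowest CON value in AGA piglets and above it in SGA piglets. All groups overlapped. The edgeR diet estimate was -0.18 (SE 0.074, 95% interval -0.33 to -0.02, unadjusted p = 0.028, adjusted p = 0.677). Between litter means the HF minus CON difference was -0.15 (exact permutation p = 0.468). The edgeR estimate was -0.32 in cohort 1 alone and 0.04 in cohort 2 alone. It was -0.05 (SE 0.0743) with AGA CON replicate 2 left out, and -0.14 (SE 0.0768) with AGA HF replicate 4 left out as well. KDR (gene 397311, chromosome 8, 43919330 to 43966984) ranged from 24.1 to 45.9 CPM, with edgeR estimates of 0.12 for size (SE 0.095), 0.04 for diet (SE 0.095) and -0.04 for the interaction (SE 0.177). SGA piglets had the higher KDR value in 7 of 12 pairs and the higher FLT1 value in 6 of 12.

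SLC2A1, the glucose carrier GLUT1 of brain capillaries (gene 102164419, chromosome 6, 156057568 to 156059070), averaged 38.2 ± 9.67 CPM for AGA and 36.5 ± 7.03 CPM for SGA piglets on CON formula, and 33.0 ± 6.82 and 36.5 ± 3.77 CPM on HF formula (SD, n = 6). The edgeR estimate was 0.09 for size (SE 0.069, adjusted p = 0.867), -0.04 for diet (SE 0.07) and 0.10 for the interaction (SE 0.129). None of these differences exceeded the spread between piglets.

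ABCB1, the efflux pump P-glycoprotein (gene 396910, chromosome 9, 102530015 to 102626355), had the largest fitted differences of the well-counted genes. The lowest, median and highest values were 13.9, 15.9 and 23.9 CPM in AGA CON and 13.6, 16.4 and 22.5 CPM in SGA CON. They were 10.5, 16.5 and 19.6 CPM in AGA HF and 15.7, 16.8 and 23.3 CPM in SGA HF. The groups overlapped, with the lowest value in AGA HF replicate 6 and a single high SGA HF library, replicate 3.

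In edgeR, ABCB1 was 1.18-fold higher in SGA piglets (95% interval 1.03 to 1.34, unadjusted p = 0.0159, adjusted p = 0.633) and the interaction was 0.39 on the log2 scale (SE 0.17, adjusted p = 0.683). On HF formula alone the SGA to AGA ratio of ABCB1 was 1.35 (95% interval 1.13 to 1.62, unadjusted p = 0.00224, adjusted p = 0.475), and on CON formula it was 1.03 (95% interval 0.861 to 1.23). Within the AGA piglets ABCB1 was 0.791 of the CON level on HF formula (95% interval 0.659 to 0.949, edgeR adjusted p = 0.624). None of these passed. ABCB1 was called in SGA HF against AGA HF by the DESeq2 Wald test (adjusted p = 0.386, beside 0.827% of all genes), and with the FDR computed over each contrast alone (adjusted p = 0.316, beside 1.44%). The latter adjustment also called its size effect (adjusted p = 0.338, beside 7.35%).

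The fitted ABCB1 values were larger than the differences between littermates. Over 12 pairs the SGA minus AGA difference averaged 0.08 on the log2 scale (SD over litters 0.26, exact sign-flip p = 0.331), with the SGA piglet higher in 7 of 12. It was -0.04 in the CON pairs, from -0.27 to 0.07, and 0.20 in the HF pairs, from -0.21 to 0.65, so the diets overlapped. The SGA piglet was higher in 2 of 6 CON pairs and 5 of 6 HF pairs, and the difference between diets was 0.24 (exact permutation p = 0.106). Without litter 7 that p was 0.0152, and 4.36% of all genes were under 0.05 with all litters. The edgeR value for SGA HF against AGA HF was 0.19 (SE 0.161) with sex and no surrogate variables, against 0.43 (SE 0.125) with the 5 surrogate variables. It was 0.27 (SE 0.151) without AGA CON replicate 2, 0.46 (SE 0.146) without AGA HF replicate 4 as well, and 0.26 and 0.12 in cohorts 1 and 2 alone.

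MFSD2A (gene 100518612, chromosome 6, 88931112 to 88945386, 14 exons) was the steadiest of the 10 genes. Its lowest, median and highest values were 65.8, 72.6 and 83.9 CPM in AGA CON and 61.0, 70.5 and 76.2 CPM in SGA CON. They were 62.2, 66.3 and 82.5 CPM in AGA HF and 63.8, 70.0 and 75.6 CPM in SGA HF. The 4 groups covered nearly the same range, from 61.0 to 83.9 CPM, which is 1.37-fold from the lowest to the highest library. The group means were 73.4 ± 5.85, 69.2 ± 6.31, 69.2 ± 7.55 and 69.6 ± 4.32 CPM in the same order (SD, n = 6).

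The intervals around the MFSD2A differences were narrow in the edgeR fit with surrogate variables, which has no term for litter. The SE for diet was 0.0398 there, 0.0557 with sex and no surrogate variables, and 0.059 with litter as a random block. For size the SE was 0.0396 there and 0.0512 with litter as a block, where the estimate was -0.037 on the log2 scale. In edgeR the SGA to AGA ratio was 1.04 (95% interval 0.984 to 1.1, adjusted p = 0.838) and the HF to CON ratio was 0.955 (95% interval 0.902 to 1.01, adjusted p = 0.804). The interaction was 0.11 on the log2 scale (SE 0.074, adjusted p = 0.825). Within the AGA piglets the HF to CON ratio was 0.919 (95% interval 0.849 to 0.995, unadjusted p = 0.0373), and on HF formula the SGA to AGA ratio was 1.08 (95% interval 1.00 to 1.17, unadjusted p = 0.0475). Their edgeR FDR p were 0.709 and 0.729.

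The direction of the MFSD2A size effect depended on the fit. Between littermates SGA piglets had slightly less MFSD2A, by a mean of -0.04 on the log2 scale (SD over litters 0.153, exact sign-flip p = 0.412), and were higher in 4 of 12 pairs. That was 1 of 6 CON pairs, with a mean of -0.09, and 3 of 6 HF pairs, with a mean of 0.01. The difference between diets was 0.10 (exact permutation p = 0.277). Leaving out litter 8 took that p to 0.0433, and 4.36% of all genes were under 0.05 with all litters. This difference between diets was 0.21 in cohort 1 alone and -0.02 in cohort 2 alone. The diet difference between litter means was -0.04 (exact permutation p = 0.494). It was -0.01 without litter 4, which held AGA CON replicate 2.

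**Figure D2:**
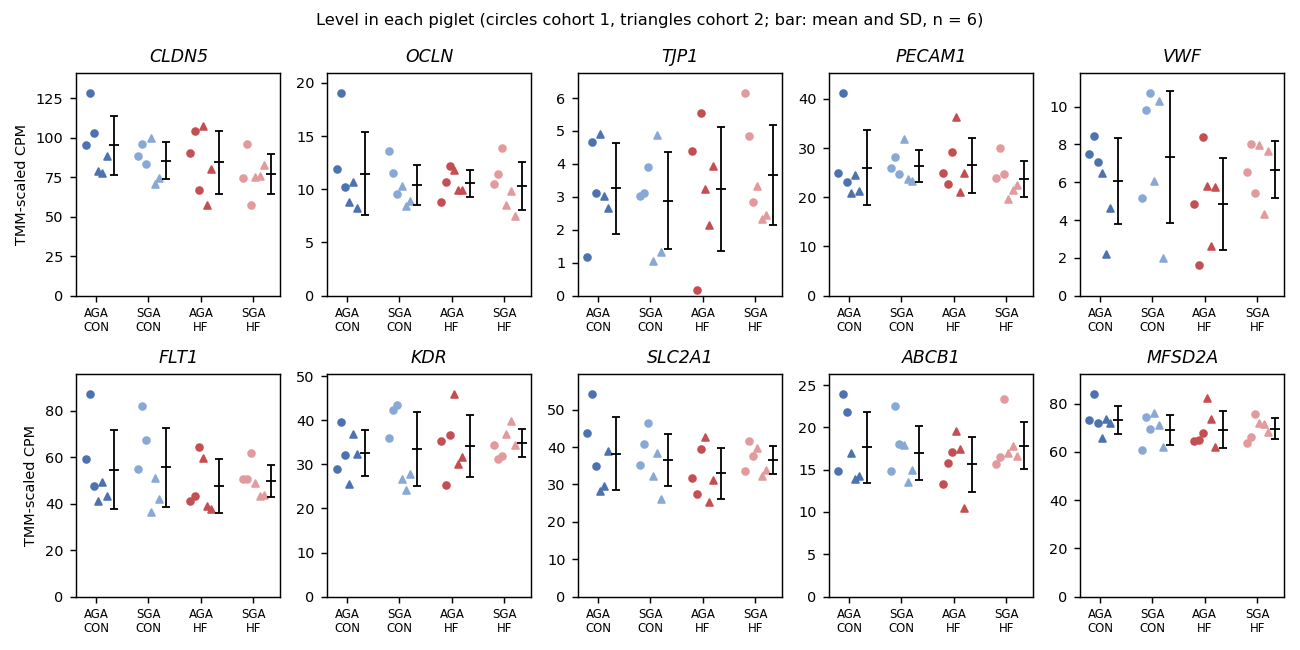
TMM-scaled CPM of each gene in every piglet by group (circles, cohort 1; triangles, cohort 2), with the mean and SD of 6 piglets as a black bar and every axis starting at 0. All groups overlap in each panel, and MFSD2A varies least, from 61.0 to 83.9 CPM.

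Relative to other endothelial RNA, MFSD2A also did not separate the groups. The log2 CPM of MFSD2A minus the mean log2 CPM of CLDN5, PECAM1, FLT1 and KDR averaged 0.70 ± 0.18 for AGA and 0.63 ± 0.22 for SGA piglets on CON formula, and 0.68 ± 0.21 and 0.73 ± 0.14 on HF formula (SD, n = 6). These values are not per length, so only their differences between groups can be read. The SGA minus AGA difference over 12 pairs was -0.01 (SD 0.213), and it was -0.05 (SD 0.232) with 17 endothelial identity genes as the reference.

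Over all 10 genes, 9 had a fitted size effect above 0 and CLDN5 one under 0 in the fit with surrogate variables. The differences between littermates were above 0 for 6 genes and under 0 for 4 (CLDN5, OCLN, PECAM1 and MFSD2A), as were the estimates with litter as a block. The median of the fitted size effects was 0.07 and their range -0.16 to 0.31, against a median of -0.00 and 49.2% above 0 for all genes. For diet 1 was above 0 (KDR) and 9 were below, with a median of -0.08 and a range from -0.18 to 0.04, against 0.00 and 50.8% above 0 for all genes. The interaction was above 0 for 5 and below for 5, with a median of 0.03. These signs are not independent between genes, since the genes varied together and share the libraries. The diet signs also depended on the fit. Between litter means KDR (0.075) and TJP1 (0.069) were above 0. Without AGA CON replicate 2 the edgeR diet estimates of FLT1, MFSD2A and ABCB1 were -0.05, -0.01 and 0.025, against -0.18, -0.07 and -0.14. That of CLDN5 was -0.09 against -0.06. With AGA HF replicate 4 left out as well, these 4 were -0.14, -0.03, -0.12 and -0.075. In the fit of all 24 libraries, standard errors of the size effect ran from 0.0396 (MFSD2A) to 0.194 (VWF), around a median of 0.105 for all genes.

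**Figure D3:**
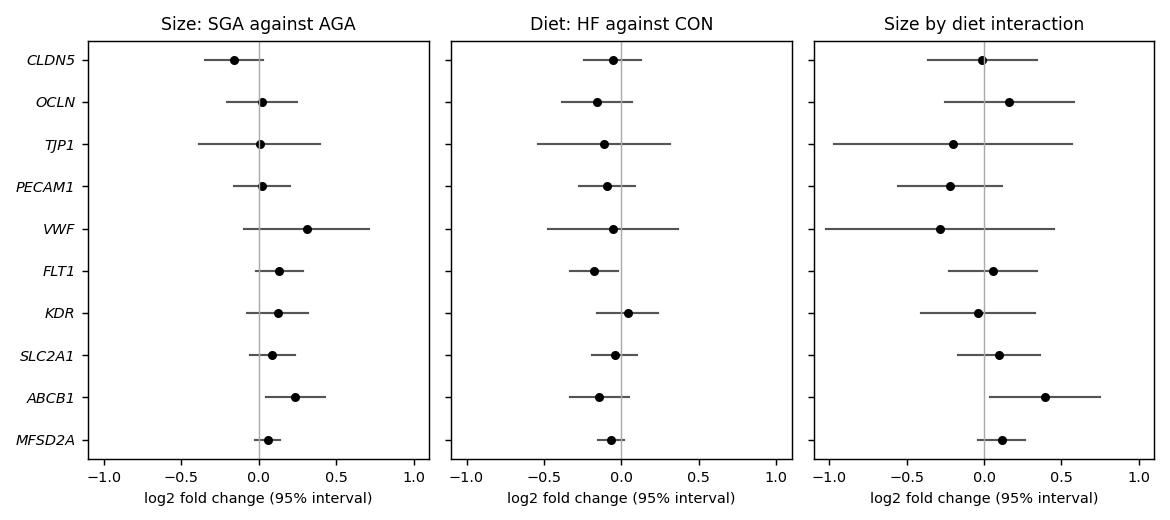
Log2 fold changes (points) with 95% intervals (lines) from the edgeR fit of the 10 genes for size, diet and the interaction. The intervals of ABCB1 for size (0.05 to 0.43) and the interaction, and of FLT1 for diet, leave out 0 before adjustment, and the MFSD2A intervals are the shortest.

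The 4 comparisons between single groups called 0 of 10 genes each in edgeR. The shares of all genes called were 0.129% for SGA CON against AGA CON, 0.288% for SGA HF against AGA HF, 0.0674% for AGA HF against AGA CON and 0.0919% for SGA HF against SGA CON. At an unadjusted p under 0.05 none of the 10 passed in SGA CON against AGA CON (6.59% of all genes) or in SGA HF against SGA CON (5.16%). ABCB1 and MFSD2A passed that level in SGA HF against AGA HF (8.02%) and in AGA HF against AGA CON (6.09%). These comparisons share the AGA HF libraries, so they are not separate evidence.

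The exact tests by litter passed 0 of 10 genes at an unadjusted p under 0.05. The background was 12.6% of all genes for size, 4.1% for diet and 4.36% for the interaction. The smallest p among the 10 genes was 0.132 for size (CLDN5), 0.214 for diet (CLDN5) and 0.106 for the interaction (ABCB1). The design could reach 0.000488 for size and 0.00216 for the other tests. Neither test shows that the groups were equal.

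**Figure D4:**
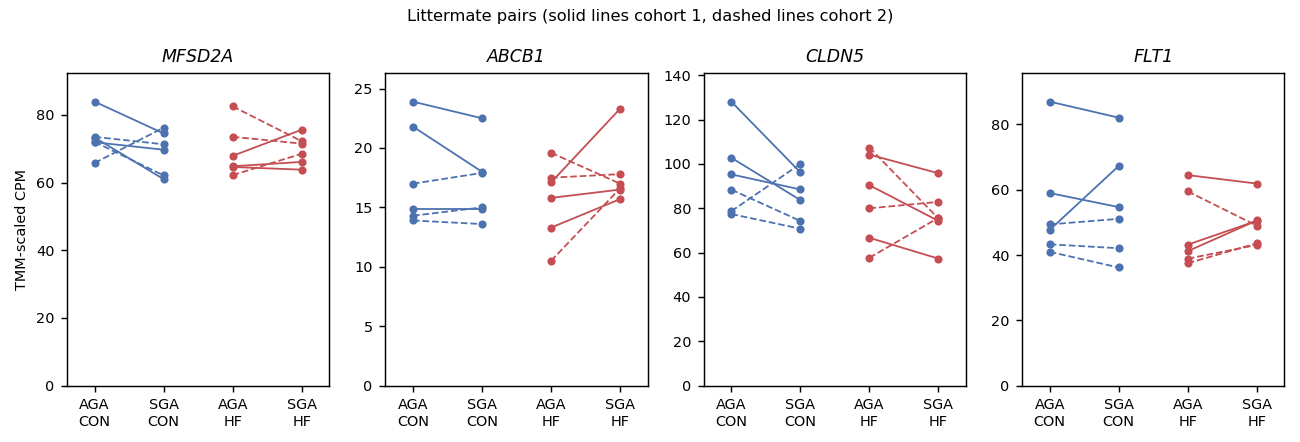
TMM-scaled CPM of AGA and SGA littermates, joined by a line, on CON (blue) and HF (red) formula for MFSD2A, ABCB1, CLDN5 and FLT1 (solid lines, cohort 1; dashed lines, cohort 2; axes start at 0). ABCB1 was higher in the SGA piglet in 5 of 6 HF pairs and 2 of 6 CON pairs, and CLDN5 in 3 of 12 pairs in all.

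Apart from MFSD2A, the barrier genes varied more between piglets of the same group than most genes of like level. The within-group SD of MFSD2A was 0.124 on the log2 scale. Only 5.95% of all genes tested, and 18.7% of the 1762 genes within 0.5 of its mean log2 CPM, had a smaller one. The SD of the other 9 ran from 0.265 (PECAM1 and KDR) to 0.9 (TJP1), and each exceeded between 65.3% (OCLN) and 97.0% (TJP1) of the genes of like level. FLT1, at 0.349, exceeded 95% of them and CLDN5, at 0.273, exceeded 91.9%. These SD include AGA CON replicate 2, the highest library for 7 of the 10 genes, and AGA HF replicate 4. Values without these libraries are not given here.

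A part of this variation went with cohort. Of the 10 genes, 9 had a lower mean log2 CPM in cohort 2, all but MFSD2A. The share of all genes lower in cohort 2 is not given here, so this count cannot be read as particular to these genes. Cohort 1 held AGA CON replicate 2, the highest library for 7 of the 10, and the signs are not independent between genes. FLT1 averaged 59.2 ± 14.4 CPM in cohort 1 and 44.5 ± 6.63 CPM in cohort 2 (SD, n = 12), a difference of -0.38 on the log2 scale. OCLN averaged 11.9 ± 2.68 and 9.4 ± 1.21 CPM, and MFSD2A 69.7 ± 6.41 and 70.9 ± 5.74 CPM. Each cohort held 3 litters of each diet and all 4 groups.

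Levels of the genes tended to vary together across piglets of the same group, though not in every pair. With the group means removed, Pearson's r over the 24 libraries was above 0 for 42 of the 45 pairs, with a median of 0.39 and a range from -0.19 to 0.79. The highest values were between SLC2A1 and FLT1 (0.79), SLC2A1 and VWF (0.75) and PECAM1 and OCLN (0.74). TJP1 had the 3 pairs under 0, with CLDN5, MFSD2A and ABCB1. The libraries share tissue, cohort, litter and depth, so these values are descriptions. The share of all gene pairs above 0 is not given here, so the count of 42 cannot be read as particular to these genes. The median r was 0.25 with litter means removed as well, 0.36 with group means taken within cohort, and 0.27 without litter 4. For CLDN5 with FLT1, r was 0.23, and it was 0.004 with group means within cohort and -0.06 without litter 4. Ranked by r among 12361 genes with a symbol, FLT1 took place 20 for SLC2A1 but place 2915 for CLDN5.

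Against the mean of the 17 endothelial identity genes, r was highest for PECAM1 (0.85), SLC2A1 (0.78) and FLT1 (0.68), and lowest for MFSD2A (0.45) and TJP1 (0.30). Against the mean of 6 neuron markers r was below 0 for all 10 genes, from -0.66 (PECAM1) to -0.23 (TJP1). Against the astrocyte markers it was above 0 for all 10, from 0.24 (MFSD2A) to 0.71 (SLC2A1). These values include AGA CON replicate 2 and AGA HF replicate 4, which had the lowest neuron and highest astrocyte sums. Their summed endothelial identity markers were also the highest, at 665.5 and 594.0 CPM. Values without these libraries, and the shares of all genes with the same signs, are not given here.

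**Figure D5:**
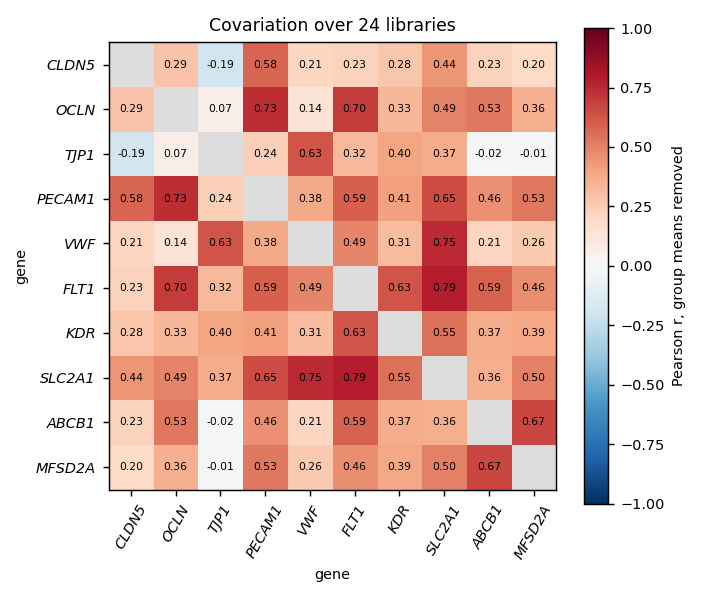
Pearson's r between the 10 genes over 24 libraries, on log2 CPM with the group means removed (red above 0, blue below). SLC2A1 with FLT1 has the highest value (0.79), MFSD2A goes most with ABCB1 (0.67), and TJP1 has the only values below 0.

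Of the other 9 genes MFSD2A went most closely with ABCB1 (r = 0.67, place 66 among 12361 genes with a symbol) and least with TJP1 (r = -0.01). That value was 0.73 with group means within cohort, 0.53 with litter means removed and 0.57 without litter 4. The 5 genes most like MFSD2A were CNKSR3 (r = 0.78), RAB9A (0.78), LMO2 (0.77), CBX8 (0.76) and MBD2 (0.74). Those most like CLDN5 were P3H4 (r = 0.81), the endothelial TGF-beta co-receptor ENG (0.81), ATRAID (0.80), LRP10 (0.79) and ILVBL (0.78). Over the same 12361 genes r with CLDN5 ran from -0.81 to 0.81 around a median of -0.01.

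Of 151 other genes tested, in 15 lists of related pathways and of markers of other cell types, 1 was called. The count was 0 of 151 for size and for the interaction, and 1 of 151 for diet, beside 0.159% of all genes. At an unadjusted edgeR p under 0.05 there were 18 for size, 17 for diet and 5 for the interaction, beside 10.6%, 7.09% and 4.01% of all genes. The gene called was CRABP2, a retinoic acid binding protein in the list of meningeal fibroblast markers, which was higher on HF formula by 1.82 on the log2 scale (SE 0.431, adjusted p = 0.362) at 0.216 to 13.3 CPM over the libraries.

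Among the 17 endothelial identity genes 0 were called, with a median size effect of 0.05 and a median diet effect of -0.03. EGFL7, an endothelial secreted factor, averaged 158.8 CPM and ENG 65.8 CPM. Of 15 junction genes 11 were tested and 0 passed, with a median of -0.07 for size and -0.00 for diet. CLDN11, the claudin of myelin, averaged 382.4 CPM and CTNNB1, beta-catenin, 179.9 CPM. CLDN1 had 0 counts in all 24 libraries. Of 18 further barrier transporters 16 were tested and 0 passed, with a median of 0.13 for size and -0.11 for diet. SLC3A2, the heavy chain of amino acid carriers, averaged 227.3 CPM and the glutamine carrier SLC38A5 70.7 CPM.

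The list of VEGF and angiopoietin signalling also holds a further VEGF receptor and genes of Notch and apelin signalling. It gave 0 calls among 14 tested, with a median of -0.00 for size and 0.04 for diet. VEGFB averaged 150.3 CPM and APLN, the ligand of the apelin receptor, 112.8 CPM. The Wnt programme, which induces and maintains barrier properties in brain endothelium, gave 0 calls among 16, with a median of 0.03 for size and -0.10 for diet. The Wnt target APCDD1 averaged 70.3 CPM and the ligand WNT7B 64.4 CPM. Genes of caveolae gave 0 calls among 7 tested, with a median of 0.00 for size and 0.07 for diet, and CAVIN3 (56.9 CPM) and EHD2 (52.6 CPM) had the highest CPM.

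The remaining genes of DHA and fatty acid uptake gave 0 calls among 14 tested, with medians of 0.03 for size, -0.03 for diet and 0.01 for the interaction. FABP7, the fatty acid binding protein of radial glia and astrocytes that binds DHA, averaged 715.8 CPM and was -0.18 on the log2 scale for diet (SE 0.062, edgeR unadjusted p = 0.00947). PNPLA6, a lysophospholipase, averaged 183.9 CPM. The fatty acid carrier CD36 was under the filter.

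Markers of other cell types gave no call except CRABP2. For size the median was 0.10 for 13 pericyte and smooth muscle genes, -0.00 for 7 astrocyte genes, -0.21 for 8 oligodendrocyte genes, -0.03 for 7 microglia genes and 0.03 for 6 neuron genes. All 8 oligodendrocyte genes had a size effect under 0, where 49.2% of all genes were above 0. Of the 8, 3 had an unadjusted edgeR p under 0.05, beside 10.6% of all genes, and 0 were called. The signs are not independent between genes. Summed over the 8, the level was 13113.0 to 20032.0 CPM in SGA CON against 18663.5 to 24636.8 CPM in AGA CON. On HF formula it was 12119.3 to 23869.9 CPM in SGA against 14428.6 to 26239.1 CPM in AGA piglets. Of these lists GFAP (8236.2 CPM) and SLC1A2 (875.0 CPM) had the highest mean among astrocyte genes, MBP (6597.3 CPM) and MOBP (6329.6 CPM) among oligodendrocyte genes, and SLC17A7 and SYT1 (984.0 CPM) among neuron genes. Pericyte and smooth muscle genes were led by TAGLN (57.7 CPM) and ACTA2 (45.5 CPM), and microglia genes by C1QA (48.9 CPM) and CX3CR1 (30.7 CPM). Choroid plexus, meningeal and blood cell markers were low, with summed levels of 37.4 to 179.2, 105.1 to 234.8 and 13.3 to 29.9 CPM. Their highest means were those of FOLR1 (32.0 CPM for the higher of 2 neighbouring genes with this symbol, which may share reads) and TTR (21.5 CPM) for the choroid plexus, COL3A1 (45.8 CPM) and SLC22A6 (27.9 CPM) for meningeal fibroblasts, and ITGA2B (8.63 CPM) and ALAS2 (8.46 CPM) for blood cells.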

How the data were processed

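Per the paper and the submitters' processing notes, the authors trimmed single-end reads (Trimmomatic 0.33), aligned them to Sscrofa10.2 (STAR 2.5.2a) and counted reads on exons per Entrez gene by strand (featureCounts, Subread 1.5.0). The deposited values are whole-number counts without normalization. An entry without an identifier (0.613 to 1.62% of a library) was left out. Symbols came from a Sscrofa11.1 table, which matched 23036 of 38882 identifiers, 15993 with a symbol. Coordinates are those of the files.

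In R 4.3.3, counts were TMM-normalized and fitted with edgeR 4.0.16 on the groups, sex and 5 surrogate variables (sva 3.50.0), with the FDR over 7 contrasts together. Limma 3.58.1 and DESeq2 1.42.0 were alternatives. Two-sided exact tests used log2 CPM (prior count 2): 2048 sign flips of the 12 pair differences, and 924 reassignments of litters. Their p are unadjusted. Fits and exact tests were checked on simulated data without litter, cohort or tissue differences, so the checks do not cover those. The labels give the litter of each piglet, so littermates are paired. Their deviations from the group means correlated between 0.014 and 0.329, above 0 in 12 of 12 litters.

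The 10 genes and the lists were chosen with earlier results of these data known. All 10 genes are named. Of each other list the text names the genes called for size, diet or the interaction, at most 3 per contrast, and the 2 with the largest mean CPM, and of the genes most like MFSD2A and CLDN5 the first 5. CLDN1, CD36 and PROX1 and the test of FABP7 fall outside the rule and were chosen after their values were seen. Alternatives covered normalization, filters, test, surrogate variables, cohort, FDR, litter and, chosen after seeing the data, leaving out AGA CON replicate 2 with or without AGA HF replicate 4. The limit of 3 counts covers counting error only, since reads carried no molecular identifiers. RNA integrity was low on average by the study's methods.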

Additional observations from a re-analysis of the deposited data

Results flagged for a closer look

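In 3 of the 40 combinations of gene and group, 1 of the 6 piglets lay far from the others, with a gap to its nearest neighbour above Dixon's 95% critical value for 6 samples, relative to the group's range. Chance flags about 1 in 20 groups. PECAM1 in AGA CON replicate 2 was 41.1 CPM, with a gap of 0.795 of the range. OCLN in the same library was 19.0 CPM (gap 0.659), and this library had the lowest summed neuron markers. ABCB1 in SGA HF replicate 3 was 23.3 CPM (gap 0.721). The cause of these values was not tested.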

How the results depend on the processing

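The count of genes called, 0 of 10, held for size, diet, the interaction and the single-group comparisons in several settings. These were other normalization, filters, surrogate variables, cohorts fitted alone in edgeR, and limma voom. Over all genes these settings called from 0 (either cohort alone) to 174 (2 surrogate variables) for size. For diet they called from 0 to 45 genes and for the interaction from 0 to 15. With the FDR over each contrast alone it was 1 for size and 1 for the single-group comparisons, and 1 for the latter under the DESeq2 Wald test, each time ABCB1. With litter as a block (replicate block) 0 of 10 were called, beside 420 of 16326 genes for size and 45 for the interaction. The paired ABCB1 estimate for size was 0.08 (SE 0.0785), and the block added no call. Without AGA CON replicate 2 the count was 0. In the exact tests by litter, leaving out each litter gave 0 to 1 of 10 for size (CLDN5 without litter 8 or 9), 0 for diet and 0 to 1 for the interaction (ABCB1 without litter 7, MFSD2A without litter 8). Values of the exact tests within a cohort were planned as descriptions, since few litters limit their p. CLDN5 for size in cohort 1 (p = 0.0312, exact sign-flip) was under 0.05, at the smallest p that 6 pairs allow. Shares of all genes under 0.05 without a litter or within a cohort are not given here.

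None of the 10 genes was called in the reported edgeR fit, so there was no call to reverse. The 3 calls gained under alternatives were all of ABCB1. Of 960 alternative log2 fold changes, 154 had the other sign than the reported value. The largest reported value with such a change was the ABCB1 difference of AGA HF against AGA CON, of size 0.339. Signs are therefore not settled for small effects or for this larger one. VWF and TJP1 had the fewest counts of the 10 genes, and their spread also exceeded that of most genes of like level. Calls over all genes for size rose from 78 to 402 without AGA CON replicate 2 and were 36 without AGA HF replicate 4 as well. The cause was not tested.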

Other observations

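The gene with the smallest unadjusted p in some lists is given here, chosen after the values were seen; none passed an edgeR adjusted p (FDR) of 0.4. SLC7A5, a carrier of large neutral amino acids at the barrier, had a size effect of 0.37 on the log2 scale (SE 0.106, adjusted p = 0.478 in edgeR). LEF1, a transcription factor of the Wnt pathway, had a size effect of 0.30 (SE 0.091, adjusted p = 0.494 in edgeR). NRP1, a co-receptor of VEGF, had a diet effect of -0.37 (SE 0.106, adjusted p = 0.466 in edgeR), and the ligand WNT7A one of -0.26 (SE 0.078, adjusted p = 0.495 in edgeR). CAVIN3, a coat protein of caveolae, had an interaction of 0.35 (SE 0.095, adjusted p = 0.428 in edgeR).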
